A study of Mus musculus with 3 samples.

Results

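The small leucine-rich proteoglycans are a family of secreted matrix proteins, and 9 of their genes were followed here in cells of the mouse femoral artery: Dcn (decorin), Bgn (biglycan), Aspn (asporin), Fmod (fibromodulin), Lum (lumican), Prelp, Omd (osteomodulin), Ogn (osteoglycin, also called mimecan) and Podn (podocan). They were chosen by gene symbol, with earlier results of these data known. All 9 were found among the 32285 genes listed in each of 3 libraries. The arteries came from wild-type male mice of 8 weeks. 1 group had a sham operation (Sham), and the others had a wire injury of the femoral artery and were killed after 2 days (D2) or 7 days (D7). For each group the live single cells of 6 mice were sorted with the dye DAPI and pooled into 1 droplet library, so that each group is 1 sample. The labels used here give no day of harvest for Sham and name no transgene or drug.

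These proteins are built from leucine-rich repeats that bind fibrillar collagen, and most carry chondroitin, dermatan or keratan sulphate chains. In connective tissue they set the diameter and spacing of collagen fibrils, bind growth factors such as TGF-β and, once released, can act on cell surface receptors. In the artery wall, decorin and biglycan are the classic dermatan and chondroitin sulphate proteoglycans, and they are studied for their place in collagen deposition and lipoprotein retention.

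Several of the 9 genes lie side by side in the genome (GRCm38 coordinates, GENCODE M21 annotation, all protein-coding). On chromosome 13, Aspn (ENSMUSG00000021388, chr13:49544443-49567565, + strand), Omd (ENSMUSG00000048368, chr13:49582462-49592822, +) and Ogn (ENSMUSG00000021390, chr13:49608046-49624501, +) follow each other with gaps of 14896 and 15223 bases and no protein-coding gene between them. On chromosome 10, Dcn (ENSMUSG00000019929, chr10:97479609-97518143, +) is 46984 bases from Lum (ENSMUSG00000036446, chr10:97565128-97572703, +). On chromosome 1, Prelp (ENSMUSG00000041577, chr1:133910304-133921414, − strand) is 115839 bases from Fmod (ENSMUSG00000041559, chr1:134037254-134048277, +). Bgn (ENSMUSG00000031375, chrX:73483602-73495933, +) and Podn (ENSMUSG00000028600, chr4:108014791-108096445, −) stand alone.

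In fibroblast-like cells at D7, Aspn was above and its chromosome 13 neighbours Ogn and Omd were below their Sham level, so the promoters of these 3 genes are shown. The neighbours Dcn and Lum on chromosome 10 also went apart, at 0.657 and 3.67 times Sham. Each is the 250 bases before the RefSeq transcription start in GRCm38.p6, + strand, 5′ to 3′. Aspn is chr13:49544193-49544442, Omd is chr13:49582212-49582461 and Ogn is chr13:49607765-49608014. Capitals mark matches, on either strand, to TATAAA (the letters of a TATA box) or to the core letters bound by TEAD factors, CATTCC. Whether any match is in use was not tested.
Aspn: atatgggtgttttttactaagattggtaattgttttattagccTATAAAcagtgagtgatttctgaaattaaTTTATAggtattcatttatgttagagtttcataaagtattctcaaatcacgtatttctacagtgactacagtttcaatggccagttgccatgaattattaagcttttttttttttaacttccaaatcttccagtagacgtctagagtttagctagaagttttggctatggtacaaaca
Omd: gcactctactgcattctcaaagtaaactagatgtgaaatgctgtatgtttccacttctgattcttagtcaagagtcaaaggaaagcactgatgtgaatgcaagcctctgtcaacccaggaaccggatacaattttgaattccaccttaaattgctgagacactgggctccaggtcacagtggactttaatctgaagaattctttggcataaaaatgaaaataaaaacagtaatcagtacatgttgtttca
Ogn: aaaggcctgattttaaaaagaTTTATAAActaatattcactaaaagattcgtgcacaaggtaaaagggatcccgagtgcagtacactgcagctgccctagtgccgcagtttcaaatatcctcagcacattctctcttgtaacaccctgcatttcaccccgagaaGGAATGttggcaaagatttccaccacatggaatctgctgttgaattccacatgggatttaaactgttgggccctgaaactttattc
The Aspn window holds TATAAA letters at 207 and 178 bases before the start. The Ogn window holds them at 229 and 227 bases, where the matches overlap on opposite strands, and CATTCC at 86 bases. The Omd window holds neither. Of 32851 promoter windows of this length in the RefSeq table, 12.4% held TATAAA and 12.6% held CATTCC. The letters of an AP-1 site, TGANTCA, were in 6.75% of all windows and in none of the windows of the 7 genes that had an entry (all but Dcn and Lum).

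The libraries held 7329 Sham, 10988 D2 and 10852 D7 cells after filtering, with a median of 4077 to 6721.5 UMIs per cell (unique molecular identifiers, 1 per captured transcript). Pairs of libraries shared 21 to 29 cell barcodes. Classes were rebuilt from marker genes in clusters made without the 9 genes, and a name with "-like" rests on transcripts alone. Although the labels call these arterial cells, only 150 Sham, 16 D2 and 295 D7 cells were smooth muscle-like. Fibroblast-like cells numbered 3795 (51.8% of cells), 103 (0.937%) and 3096 (28.5%), with a median of 1862, 8221 and 11881 UMIs. They were not the same clusters in each library. In Sham, 1752 cells were in a shallow cluster (median 828 UMIs), 1311 in a cluster led by Penk, Inmt and C7 and 723 in one led by Pi16 and Sema3c. At D2 and D7, 70 and 2655 cells were in a cluster led by Cthrc1, Mfap4 and Postn, which held 9 Sham cells. The 12 fibroblast markers summed to 19820 CPM in Sham, 34524 at D2 and 68349 at D7 (CPM, UMIs per 1000000 UMIs of the class in a library). Of these markers, Col1a1, Col1a2, Col3a1, Col5a2, Col6a1, Col6a2 and Col6a3 are also in the collagen list counted below. The 12 monocyte/macrophage markers summed to 55.8, 531.1 and 243.7 CPM in the same cells (0, 1 and 0 of them at 0), and the 10 smooth muscle markers to 70.2, 274.9 and 251.8 CPM (0, 1 and 0 at 0). Their part in the results below was not tested.

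Levels are given in CPM with exact 95% Poisson intervals, and ratios with exact conditional binomial intervals. The intervals cover counting error only, not the spread between mice, and no test between groups could be made, since each group is 1 library. A gene was called apart in a pair of libraries when the ratio of (CPM + 1) was at least 2 and the higher library had at least 50 CPM and 20 UMIs. The 3′ counts are 1 per molecule and are not scaled by transcript length.

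In fibroblast-like cells the family went in different directions after injury. At D7, Bgn, Lum, Fmod and Aspn were above Sham and Ogn was below it. At D2, Bgn alone was above Sham, and Dcn, Ogn, Aspn, Prelp and Podn were below it, but the D2 values rest on 103 cells. Dcn, the most abundant of the 9, stood at 10725 CPM in Sham (10674 to 10776; 171401 UMIs), 3148 at D2 (3063 to 3235; 5187 UMIs) and 7047 at D7 (7020 to 7074; 266186 UMIs). Decorin binds collagen and TGF-β. The Dcn level was lowest at D2 and was 0.657 times Sham at D7 (0.653 to 0.661), short of the 2-fold rule.

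Biglycan is the closest relative of decorin and, when soluble, is known to act on Toll-like receptors. Bgn stood at 511.1 CPM in Sham (8168 UMIs), 1462 at D2 (2409 UMIs) and 2519 at D7 (95139 UMIs). The order was Sham, D2, D7, with ratios to Sham of 2.86 at D2 (2.73 to 2.99) and 4.93 at D7 (4.82 to 5.04). Asporin, the third member of this class, carries an aspartate-rich stretch and is known to bind TGF-β. Aspn stood at 300 CPM in Sham (4795 UMIs), 132.3 at D2 (218 UMIs, 19.7% of them in 1 cell) and 1124 at D7 (42458 UMIs). Its lowest library was D2, at 0.441 times Sham (0.383 to 0.505), and its highest D7, at 3.75 times (3.64 to 3.86).

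Lumican and fibromodulin are keratan sulphate proteoglycans that bind the same region of type I collagen. Lum was nearly level in Sham and D2, at 530.6 CPM (8480 UMIs) and 518.3 CPM (854 UMIs), and stood at 1947 CPM at D7 (73563 UMIs). The ratio to Sham was 0.977 at D2, whose interval holds 1 (0.909 to 1.05), and 3.67 at D7 (3.59 to 3.75). Fmod was scarce in Sham and at D2, with 8.20 CPM in Sham (131 UMIs, 16.8% of them in 1 cell) and 2.43 CPM at D2 (4 UMIs). At D7 it stood at 101.4 CPM (3831 UMIs), 12.4 times Sham (10.4 to 14.8), the largest ratio to Sham of the 9 genes. Prelp, which binds both collagen and heparan sulphate, stood at 129.5 CPM in Sham, 57.1 at D2 (94 UMIs) and 137.8 at D7. The D7 level was 1.06 times Sham (1.01 to 1.12), close to the Sham level.

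Osteoglycin and osteomodulin were named for bone, where they were first isolated, and mimecan is also a known product of the vessel wall. Ogn was the second most abundant member in Sham, at 1624 CPM (25961 UMIs), and stood at 244.0 CPM at D2 (402 UMIs) and 666.2 at D7 (25166 UMIs). Ogn was 6.66-fold lower than Sham at D2 and 2.44-fold lower at D7. Omd stood at 49.99 CPM in Sham (799 UMIs), 4.86 at D2 (8 UMIs) and 9.27 at D7 (350 UMIs). It was 5.40-fold lower at D7 than in Sham, but was not counted among the genes apart because its Sham level lies just under 50 CPM. Podn, a collagen-binding member whose loss is known to increase smooth muscle growth, stood at 102.2 CPM in Sham (1634 UMIs), 30.95 at D2 (51 UMIs) and 64.3 at D7 (2430 UMIs). The D7 to Sham ratio of Podn was 0.629 (0.591 to 0.670).

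**Figure D1:**
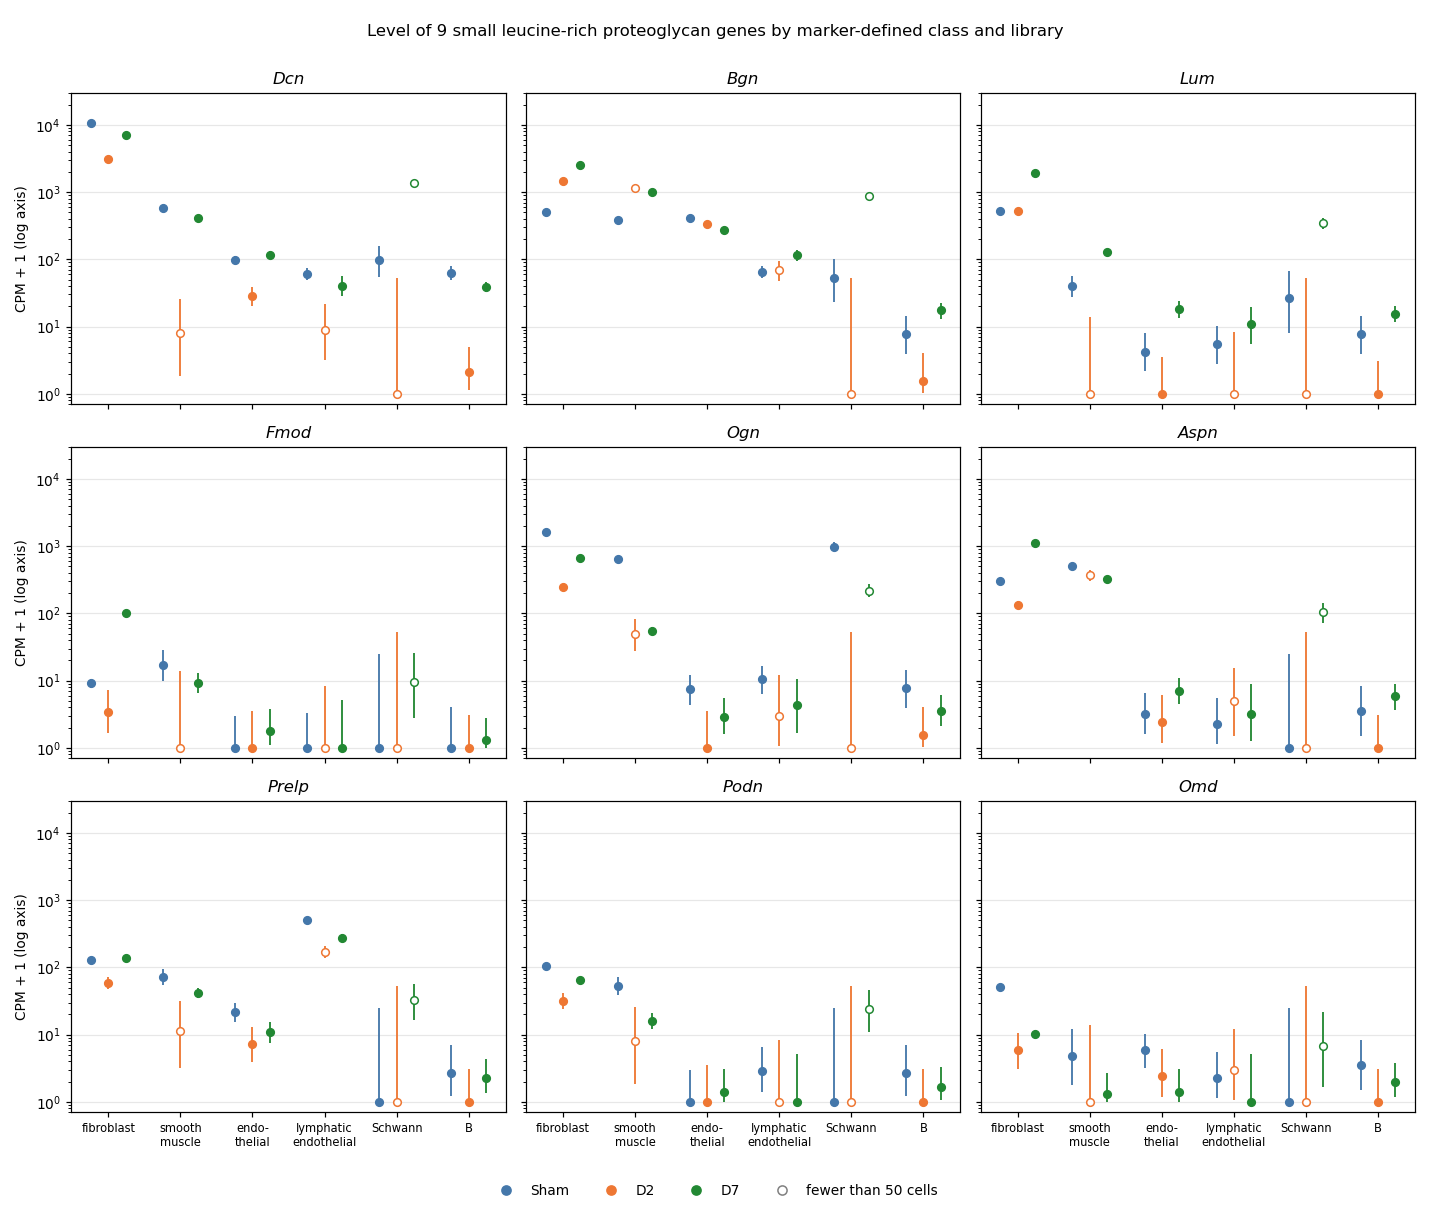
Level of each of the 9 genes in 6 marker-defined classes (x axis) and 3 libraries (colours), as CPM + 1 on a log axis, with 95% counting intervals; open symbols stand for fewer than 50 cells, and a symbol at 1 means 0 UMIs. In fibroblast-like cells Bgn, Lum, Fmod and Aspn are highest at D7, while Ogn and Omd are highest in Sham; Prelp is highest in lymphatic endothelial-like cells.

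Against all genes, 4 of 8 members that met the level rule were at least 2-fold higher at D7 than in Sham, where 7.53% of 3760 genes were, and 1 of 8 was at least 2-fold lower, where 10.4% were. The members' median log2 ratio was 0.98, beside -0.05 over all genes tested. At D2 against Sham, 1 of 7 members was higher, where 13.1% of 3958 genes were, and 5 of 7 were lower, where 14.7% were. The median log2 ratio was -1.18 for the members and 0.06 for all genes. At D7 against D2, 7 of 8 members (all but Bgn) were higher, where 6.05% of 3668 genes were, and 0 were lower, where 4.88% were, with medians of 1.35 and -0.11. Each library enters more than 1 of these pairs.

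The D2 values depend on a few dividing cells. Of 103 fibroblast-like cells at D2, 32 were in a sub-cluster led by Birc5 and Cenpa, genes of cell division, and they held 58.7% of the class's UMIs. They held 29.2% of the Dcn UMIs and 9.80% of the Podn UMIs, but 51.8% of those of Bgn and 57.8% of those of Aspn. Without them, 2 members were at least 2-fold below Sham at D2, Ogn at 0.261 and Aspn at 0.451 times Sham, while Dcn stood at 0.504, Prelp at 0.738 and Podn at 0.662. Bgn was then 3.34 times Sham and Lum 1.49 times. D7 against D2, 3 members remained at least 2-fold higher, Lum (2.46), Fmod (34.6) and Aspn (8.34). When every cell counted equally, by the mean over cells of each cell's CPM, Bgn at D2 was 1.56 times Sham. No member was then called higher, and Ogn (0.304) and Podn (0.451) were called lower. The share of all genes called is not given here for settings other than the main one. Counts of members under those settings thus stand without a background.

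The D7 against Sham pattern did not turn on these choices. The same 4 genes were called higher under all 12 settings tried. Across settings the D7 to Sham ratio ran from 2.58 to 6.16 for Bgn, 2.40 to 4.27 for Lum, 5.95 to 16.9 for Fmod and 3.54 to 4.39 for Aspn. That of Ogn ran from 0.396 to 0.454, that of Omd from 0.175 to 0.274 and that of Dcn from 0.636 to 0.674. The Prelp ratio crossed 1, from 0.985 to 1.10.

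**Figure D2:**
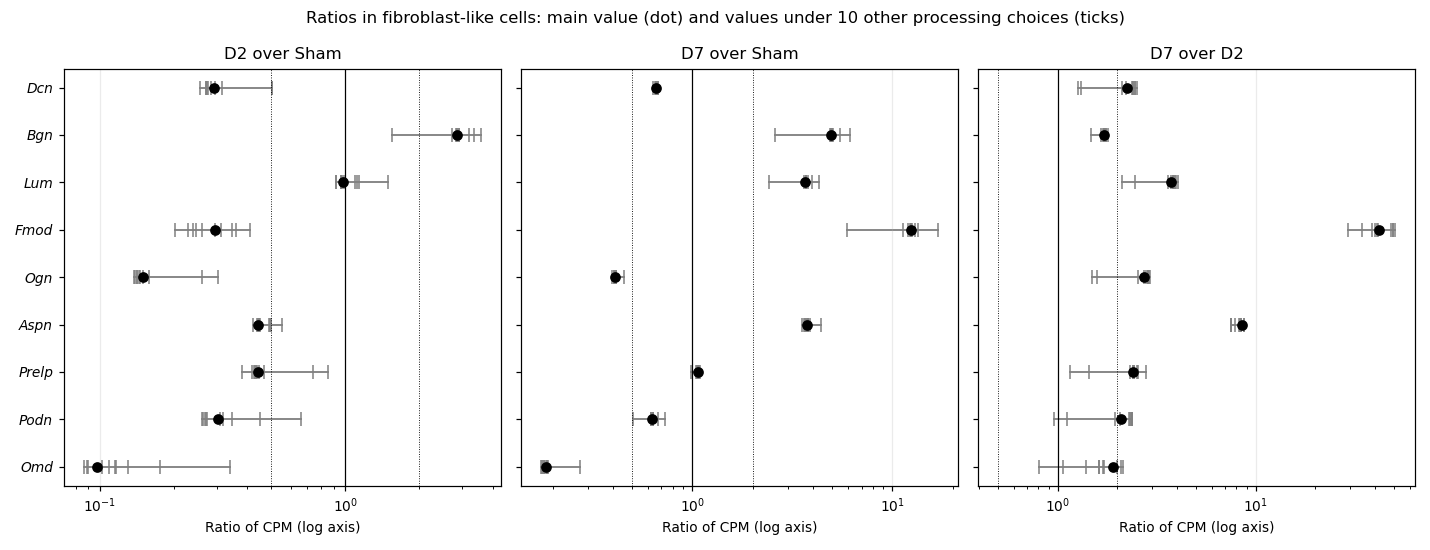
Ratio of CPM in fibroblast-like cells for each gene and pair of libraries, on a log axis; dots are the main values, ticks the values under 10 other processing choices and dotted lines 2-fold higher and lower. The D7 over Sham ratios of Bgn, Lum, Fmod and Aspn stay right of 2 and those of Ogn left of 0.5, whereas several ratios that involve D2 cross a dotted line.

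The make-up of the family's transcripts changed more than their sum between Sham and D7. Summed over the 9 genes, fibroblast-like cells had 13981 CPM in Sham (13923 to 14039), 5600 at D2 and 13616 at D7, or 1.40%, 0.560% and 1.36% of all their UMIs. The share of Dcn in the family's UMIs was 76.7% in the Sham library, 56.2% at D2 and 51.8% at D7. The share of Bgn was 3.66%, 26.1% and 18.5%, and that of Lum 3.80%, 9.26% and 14.3%. Aspn went from 2.15% in Sham to 8.26% at D7 and Ogn from 11.6% to 4.89%. Ogn was thus next after Dcn in Sham, while Bgn, Lum and Aspn all stood above it at D7.

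**Figure D3:**
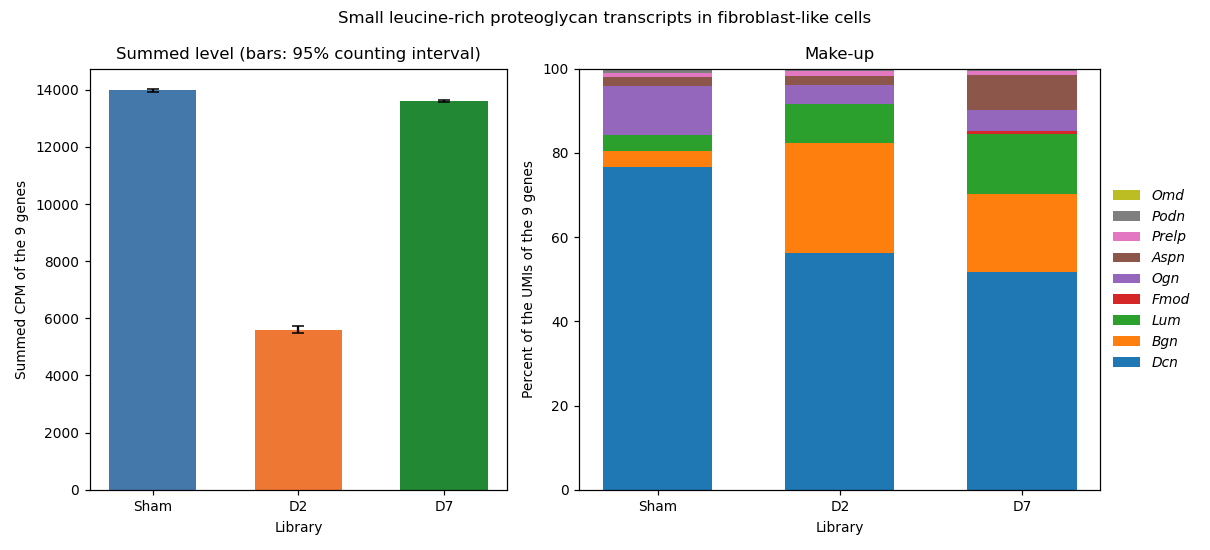
Left, summed CPM of the 9 genes in fibroblast-like cells of each library, with 95% counting intervals; right, the percent of those UMIs from each gene. The sums of Sham and D7 are 13981 and 13616 CPM, while the Dcn share is 76.7% in Sham and 51.8% at D7.

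Depth differed between the libraries, so the share of cells with a UMI was read after thinning every cell to 1000 UMIs, which left out 1285 Sham, 8 D2 and 147 D7 cells. Dcn was then found in 99.9% of 2510 Sham cells, 83.2% of 95 D2 cells and 98.8% of 2949 D7 cells. Bgn was found in 42.0%, 72.6% and 85.4% and Lum in 39.5%, 45.3% and 78.9%. The Dcn and Bgn shares follow the order of the CPM. The Lum share at D2 rests on 43 of 95 cells, and its difference from the Sham share was not tested. Aspn was found in 18.3% of Sham cells (16.8 to 19.9), 9.47% of D2 cells and 41.2% of D7 cells (39.4 to 43.0). Fmod was found in 0.677%, 1.05% (1 cell) and 6.75%, so that most D7 cells showed none at this depth. Ogn was found in 68.0%, 32.6% and 40.0% of cells, whereas without thinning its shares were 73.3%, 75.7% and 82.8%. Podn (11.4%, 7.37% and 7.63%) and Omd (4.38%, 1.05% and 0.882%) were highest in Sham, and Prelp (12.9%, 9.47% and 12.5%) was alike in Sham and D7. B-like cells, which should lack these transcripts and had a median of 4117, 4575 and 3526 UMIs, gave the background. Dcn was found in 7.19%, 0.276% and 4.50% of thinned B-like cells, Bgn in 0.360%, 0% (a limit of 0.829%) and 1.54%, and each other member in at most 1.08% by the limit that a count of 0 allows or by its value. The Fmod share in Sham and the Fmod and Omd shares at D2 were therefore not detectable above background at this depth.

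Fibroblast-like cells held most of the transcripts of each gene in Sham and at D7. These cells held 98.4% of the Sham library's Dcn UMIs, 87.1% of the D2 library's and 97.9% of the D7 library's. Prelp had the lowest share in Sham and at D7, with 68.9%, 43.1% and 90.9%, and at D2 Omd was lower still (33.3%, 8 of 24 UMIs). Bgn had 85.8%, 62.8% and 94.0%. For Aspn the shares were 91.2%, 50.2% and 96.5%, and at D2 smooth muscle-like cells held a further 24.4%. In bulk tissue of this make-up, fewer fibroblasts and less RNA per fibroblast could not be told apart: summed over all cells, the 9 genes had 6061 CPM in Sham, 133.8 at D2 and 5574 at D7. Monocyte/macrophage-like cells held 14.0% of Bgn and 21.9% of Aspn UMIs at D2. Their levels over 4524 cells were low, 10.7 CPM of Bgn and 1.89 CPM of Aspn. The 103 fibroblast-like cells had 1462 and 132.3 CPM. Whether these UMIs are free RNA was not tested.

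Within the fibroblast-like class the levels differed between sub-clusters. Sub-clusters were made without the 9 genes, and 16 sets of at least 50 cells from 1 library (a sub-cluster in a library) could be compared, 6 from Sham, 10 from D7 and 0 from D2. Dcn varied least, 2.95-fold between the lowest set (5382 CPM) and the highest (15858 CPM), with Prelp close to it (2.97-fold). Bgn varied 26.5-fold, Omd 22.5-fold, Aspn 16.8-fold, Lum 15.2-fold, Ogn 12.8-fold and Podn 6.23-fold, and Fmod was at 0 in the lowest set.

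In Sham, the deep sub-cluster led by Krtdap, Pla1a and Dpp4 (615 cells), in which Pi16 was found in 94.6% of cells, had the lowest levels of Bgn (120.6 CPM), Lum (168.3 CPM) and Podn (42.6 CPM). It had the highest Aspn level of the Sham sets, 397.9 CPM, and held 50.2% of the Sham Aspn UMIs with 37.9% of the class's UMIs, but only 8.94% of those of Bgn. At the other end, the set led by Plcxd3, C7 and Fmo2 (252 cells) had the highest levels of Dcn (15858 CPM), Ogn (2297 CPM), Prelp (225.1 CPM), Podn (265.3 CPM) and Omd (101.6 CPM) of all 16 sets. The set led by Penk, Sult1e1 and Inmt (761 cells) had 13560 CPM of Dcn and 1828 CPM of Ogn. The set led by the chemokine genes Cxcl9 and Cxcl10 (216 cells) had 8287 CPM of Dcn and 223.3 CPM of Bgn, and Fmod was at 0.

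At D7, Fmod and Aspn were concentrated in 2 sub-clusters that held 1 Sham cell between them. The set led by Tnn, Kcnj15 and C1qtnf3 with Acan, Col11a1 and Tnc, matrix genes known from cartilage, tendon and wounds (534 cells), had the highest Fmod (209.7 CPM), Aspn (1802 CPM) and Bgn (3193 CPM) and the lowest Dcn (5382 CPM). The set led by Thbs4, Ptn and Postn (625 cells) had 116.7 CPM of Fmod, 1559 CPM of Aspn and 1038 CPM of Ogn. Together they held 56.5% and 28.5% of the D7 Fmod UMIs and 43.8% and 34.3% of those of Aspn, with 27.3% and 24.8% of the class's UMIs. Of the other D7 sets, that led by the neutrophil genes S100a9 and S100a8 (54 cells) had 132.1 CPM of Fmod and 635.9 CPM of Aspn, and that led by the macrophage genes Lyz2 and C1qb (252 cells) had 65.1 and 600.1 CPM. That led by Aldh1a2, Cxcl12 and Sfrp4 (794 cells) had 21.0 CPM of Fmod and 378.0 CPM of Aspn, though its Lum level was the highest of the D7 sets above 100 cells (2410 CPM). That led by Spp1, Inhba and Dio2 (239 cells) had 2579 CPM of Bgn but 2.50 CPM of Fmod and the lowest Ogn of all sets, 179.8 CPM.

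**Figure D4:**
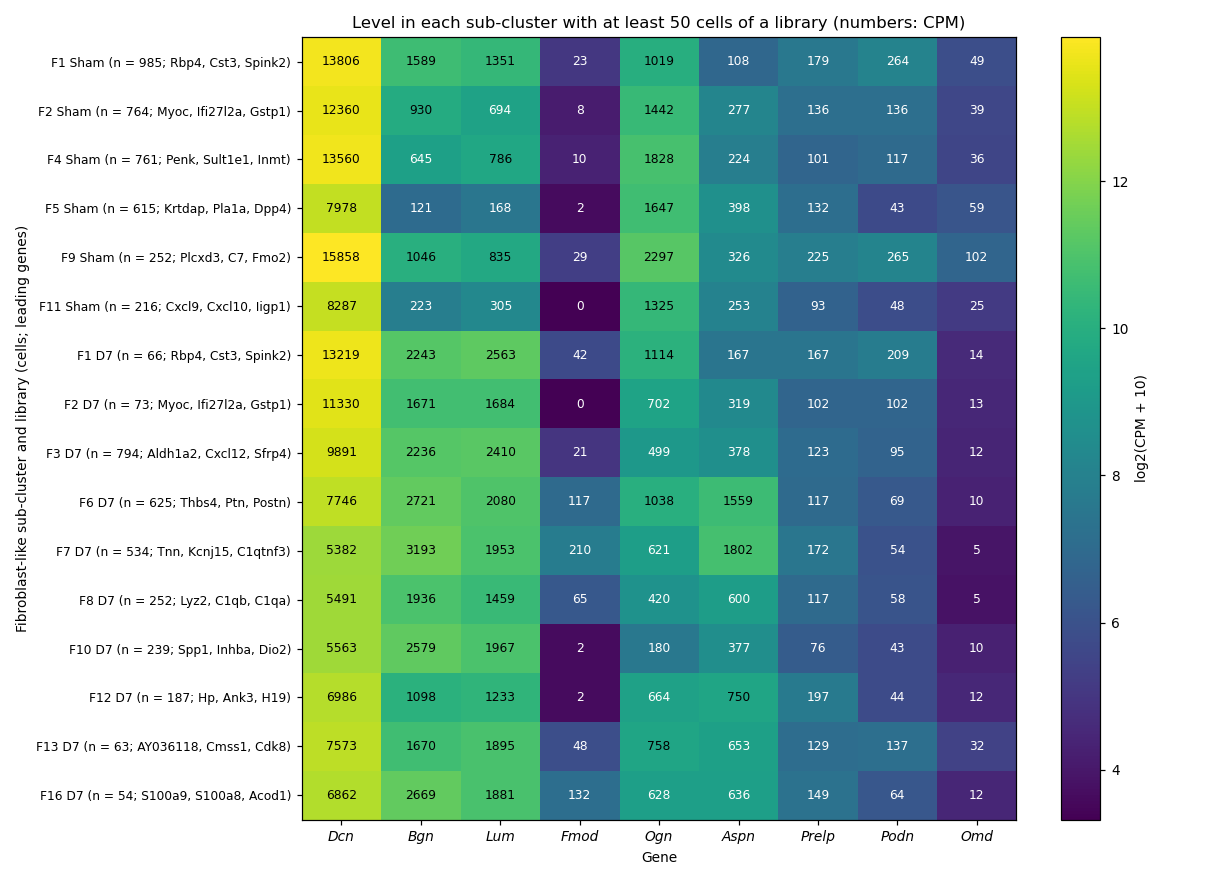
Level of each gene (columns) in the 16 sets of fibroblast-like cells (rows, with the number of cells and 3 leading genes); colour is log2(CPM + 10) and the printed numbers are CPM. The D7 sets led by Tnn and by Thbs4 have 1802 and 1559 CPM of Aspn, and Ogn is lowest, at 179.8 CPM, in the D7 set led by Spp1; F8 and F16 are led by macrophage and neutrophil genes and F13 by genes of low-quality cells.

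Sub-clusters present in both libraries allowed a comparison within a state, though both are shallow. In the set led by Rbp4, Cst3 and Spink2 (985 Sham and 66 D7 cells) the D7 to Sham ratio was 1.41 for Bgn (1.19 to 1.66), 1.90 for Lum (1.62 to 2.22), 0.958 for Dcn (0.896 to 1.02), 1.09 for Ogn (0.860 to 1.38) and 1.55 for Aspn (0.778 to 2.83). In the set led by Myoc (764 and 73 cells) it was 1.80 for Bgn (1.48 to 2.16), 2.43 for Lum (2.00 to 2.93), 0.917 for Dcn, 0.487 for Ogn (0.365 to 0.637) and 1.15 for Aspn (0.732 to 1.74). Bgn and Lum were thus higher at D7 in both, by less than in the whole class, and the Aspn intervals held 1 in both. Of the Penk-led set only 31 cells came from D7, with 1650 Dcn, 197 Lum and 28 Aspn UMIs, beside 53091, 3079 and 875 in 761 Sham cells.

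Across the 16 sets, Bgn and Lum went together most closely (Pearson r = 0.97 of log2(CPM + 10)), followed by Dcn and Podn (0.84), Ogn and Omd (0.76) and Dcn and Ogn (0.70). Fmod went with Bgn (0.62), Aspn (0.57) and Lum (0.54). Aspn went opposite to Dcn (-0.72). Bgn went opposite to Omd (-0.60) and Ogn (-0.58), as did Lum (-0.61 and -0.58). Of the chromosome 13 neighbours, Aspn had r = -0.31 with Ogn and -0.51 with Omd. These are descriptions over sets that share 2 libraries, their depth and the split between Sham and D7. Among 5317 genes, the 3 most like Bgn were Mdk (0.955), Serpinh1, a collagen chaperone (0.941), and Cd63 (0.940), and those most like Lum were Mmp3 (0.945), Ctsk (0.940) and Cd63 (0.939). Aspn was most like Rasal2 (0.905), Thbs2 (0.895) and Ssc5d (0.888), and Fmod most like Camk4 (0.900), Acan, the cartilage proteoglycan aggrecan (0.853), and Ccn5 (0.846). For Ogn the genes were Fbln5, an elastic fibre protein (0.887), Setd1b (0.845) and Jcad (0.820), and for Omd Cyp27a1 (0.921), Jcad (0.873) and Cdh13 (0.865). Dcn was most like Slco2b1 (0.922), Enpp5 (0.922) and Prnp (0.913), and Podn was like Fmo1 (0.927) and Tent5c (0.916). Prelp had no close match, with Sfrp2 (0.757), Wbp1l (0.697) and Clu (0.661).

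Fmod and Aspn were also compared cell by cell. Among thinned D7 cells, Aspn was found in 71.9% of 199 cells with a Fmod UMI (65.1 to 78.0) and in 39.0% of 2750 cells without. Bgn was found in 91.5% and 85.0% and Dcn in 99.0% and 98.8% of the same cells. Aspn was found in 50.3% of D7 cells with an Ogn UMI and 35.1% of those without, although the class levels of these neighbours went opposite ways. In thinned Sham cells the shares were alike, 18.3% and 18.4%.

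In smooth muscle-like cells Bgn was higher and Ogn lower at D7 than in Sham, as in fibroblast-like cells, while Aspn was below its Sham level. Differences between the classes were not tested. Of 7 members tested at D7 against Sham, 2 were higher, where 9.87% of 3899 genes were, and 2 were lower, where 7.93% were, with a median log2 ratio of -0.68 beside 0.08 over all genes. Ogn stood at 635.9 CPM in Sham (506 UMIs) and 53.9 at D7 (181 UMIs), 11.8-fold lower (9.94 to 14.1). Of the Sham Ogn UMIs, 187 (37.0%) were in 15 cells of a sub-cluster led by Hpse2, Pcp4l1 and Sorbs2. Podn was 3.48-fold lower (2.25 to 5.33), at 52.8 and 15.2 CPM.

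Bgn stood at 380.8 CPM in Sham and 1012 at D7, a ratio of 2.66 (2.36 to 2.999), and at D2 328 UMIs were counted in 16 cells. At D7, 46.0% of the Bgn UMIs were in 31 dividing cells that held 32.6% of the class's UMIs. Aspn stood at 510.2 CPM in Sham, above its fibroblast-like level there, and at 318.0 CPM at D7, a ratio of 0.623 (0.555 to 0.701) where that in fibroblast-like cells was 3.75. Lum was called higher (38.96 and 126.8 CPM), but 83.9% of its 31 Sham UMIs came from 1 cell. The class changed its make-up too. Its 10 smooth muscle markers summed to 32059 CPM in Sham and 13730 at D7 (0 of 10 at 0 in both), its 9 pericyte markers to 2413 and 5064 CPM and its 12 fibroblast markers to 3908 and 10706 CPM, and their part in these ratios was not tested. In the 1 sub-cluster with 50 cells in both libraries (led by Actc1 and Nts; 109 Sham and 57 D7 cells), the ratio was 0.302 for Ogn (0.232 to 0.390), 3.05 for Bgn (2.56 to 3.65) and 0.727 for Aspn (0.586 to 0.899), the same directions as in the class. For Dcn it was 1.86 (1.65 to 2.11), where the class ratio was 0.712. The intervals for Prelp (1.35; 0.782 to 2.33) and Podn (0.823; 0.463 to 1.44) held 1, where the class ratios were 0.561 and 0.288.

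Endothelial-like cells carried Bgn and little else of the family. Bgn stood at 416.9 CPM in Sham (775 UMIs), 334.0 at D2 (477 UMIs) and 267.6 at D7 (701 UMIs), and the D7 to Sham ratio was 0.642 (0.579 to 0.712). Across settings this ratio ran from 0.613 to 0.951. There were 4.31 Bgn UMIs for each Dcn UMI in Sham endothelial-like cells, beside 0.0477 in fibroblast-like cells. The share of free RNA in these counts was not tested. Dcn stood at 96.8, 27.3 and 116.4 CPM, and 51.5% of its D7 UMIs were in 1 cell. In B-like cells, the background, Dcn stood at 61.97 CPM in Sham, 1.11 at D2 and 37.84 at D7, likewise lowest at D2. The part of this background in the Dcn calls below was not tested. No other member passed 20.4 CPM in this class. Of the 2 members tested, 0 were called in either direction at D7 against Sham, where 5.42% and 6.62% of 4171 genes were higher and lower. At D2 against Sham, 0 were higher (10.5% of 4246 genes) and 1, Dcn, was lower (10.6%). At D7 against D2, Dcn was the 1 higher (2.17% of 4004 genes) and 0 were lower (1.22%).

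Lymphatic endothelial-like cells had the highest Prelp level of the named classes in Sham and at D7. It was 500.3 CPM in Sham (466.0 to 536.5; 788 UMIs) and 273.5 at D7 (248 UMIs), beside 129.5 and 137.8 CPM in fibroblast-like cells, and 85 UMIs were counted in 30 cells at D2. The D7 to Sham ratio was 0.547 (0.472 to 0.631). After thinning, 36.0% of 300 Sham cells (30.6 to 41.7) and 20.2% of 134 D7 cells (13.7 to 28.0) held a Prelp UMI, and without thinning 74.6% and 64.7%. In Sham this class had 8.47 Prelp UMIs for each Dcn UMI, where fibroblast-like cells had 0.0121. The class held 26.3%, 39.0% and 4.33% of each library's Prelp UMIs, in the order Sham, D2, D7. Of the 3 members tested at D7 against Sham, 0 were higher, where 4.26% of 4181 genes were, and 0 were lower, where 4.21% were. Fmod had 0 UMIs in this class in all 3 libraries.

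Schwann-like cells, 50 in Sham, had 153 Ogn UMIs, 985.8 CPM (835.8 to 1155), with 15 Dcn UMIs. That is 10.2 Ogn UMIs per Dcn UMI, where fibroblast-like cells had 0.152. The Ogn UMIs came from 16 cells, 32.7% of them from 1 cell and 85.0% from the top 5, so the counting interval is too narrow. The mean over cells of each cell's CPM was 593.4. Of 7 perineurial markers 4 were at 0 in these cells and the list summed to 283.5 CPM, and its part in the Ogn level was not tested. At D7, 40 Schwann-like cells had 76 Ogn UMIs (217.3 CPM, from 136.0 to 353.3 CPM across settings) and 485 Dcn UMIs, and their fibroblast markers summed to 22230 CPM, beside 3157 CPM in Sham. All 9 genes had 0 UMIs in the 7 Schwann-like cells at D2.

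The other genes of the pathway were counted in fibroblast-like cells, from lists chosen for their place in it. Of 13 fibrillar collagens and their partners, 8 were at least 2-fold higher at D7 than in Sham (Col1a1, Col1a2, Col3a1, Col5a1, Col5a2, Col12a1, Col14a1 and Lox) and 1 lower (Col5a3), with a median log2 ratio of 1.26. Over all genes tested, 7.53% were higher and 10.4% lower at D7, and 13.1% and 14.7% at D2. Col1a1, Col1a2, Col3a1 and Col5a2 are also among the markers that named the fibroblast-like class. Col1a1 had 3854 CPM in the Sham library, 8132 at D2 and 19725 at D7, and Lox, which crosslinks collagen, at 94.8, 651.9 and 335.4 CPM. At D2, 4 were higher and 1, Fn1, was lower. At D7, Bgn and Lum were thus higher together with most of the collagens, while Dcn and Ogn were at 0.657 and 0.410 times Sham.

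Of the enzymes that build chondroitin and dermatan sulphate chains, 3 of 11 tested were higher at D7 and 3 of 12 at D2, and 0 were lower at either time, beside 7.53% and 13.1% of all genes higher and 10.4% and 14.7% lower. Csgalnact1, which starts the chondroitin chain, stood at 16.7, 238.5 and 199.2 CPM, a D7 to Sham ratio of 11.9. Chsy1 (19.96, 75.3 and 61.8 CPM) and Chst11 (20.8, 111.7 and 70.1 CPM), which extend and sulphate the chain, were the others. Of the keratan sulphate enzymes only B4galt1 reached the level rule, and it was not apart. Among other small leucine-rich proteoglycans only Ecm2 did, a gene next to Aspn on chromosome 13 (chr13:49504810-49532789, +), at 167.6, 26.7 and 71.5 CPM, lower than Sham at both times as Ogn was. Of 8 other proteoglycans tested, 2 were higher (Srgn and Sdc1; 7.53% of all genes) and 1 lower (Gpc3, at 262.4, 26.7 and 24.4 CPM; 10.4% of all genes) at D7, and 3 were higher (Prg4, Srgn and Sdc4; 13.1%) and 3 lower (Sdc2, Gpc3 and Gpc6; 14.7%) at D2.

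The lists in this paragraph hold 5 to 8 tested genes and stand beside 7.53% of all genes higher and 10.4% lower at D7, and 13.1% and 14.7% at D2. The protease list held 8 tested genes with a known part in cutting or processing these proteins or their collagen partners. Of these, Mmp2 (430.9, 413.9 and 1249 CPM), Mmp3 (67.1, 438.2 and 324.6 CPM) and Mmp14 (188.3, 234.9 and 712.3 CPM) were higher at D7 than in Sham. Adamts1 and Adamts5 (632.6, 126.2 and 122.5 CPM) were lower. At D2, Mmp3 was higher and Adamts5 lower. Of 5 receptors tested, Tlr4 (60.3, 20.03 and 24.6 CPM) and Egfr (664.4, 248.8 and 262.2 CPM) were lower at both times, and Cd44 (155.7, 407.3 and 236.9 CPM) was higher at D2. In the TGF-β axis, to whose ligands decorin, biglycan and asporin bind, 1 of 5 genes was higher at D7 (Tgfb3, at 41.2, 68.0 and 157.9 CPM) and 0 were lower. At D2, Tgfbr2 (322.9, 149.9 and 304.4 CPM) and Tgfbr3 (534.5, 242.2 and 269.9 CPM) were lower and 0 were higher.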

How the data were processed

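The deposited matrices hold raw UMI counts per gene and barcode, 1 library per group, made by the authors with Cell Ranger 7.1.0 per the file headers; per the submitters' processing notes the tools were Cell Ranger 7.2.0 and Seurat 5.0.1 with mm10. No cell annotation was used. Cells needed 300 genes and 500 UMIs, with no more than 15% of UMIs mitochondrial (306, 217 and 363 barcodes failed in Sham, D2 and D7). Scrublet (expected rate 8%, score above 0.25, set after seeing the scores) removed 122 (1.64%), 485 (4.23%) and 359 (3.20%).

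With scanpy 1.11.5 and leidenalg 0.10.2, 2000 variable genes without the 9 members gave 30 components, 15 neighbours and, at resolution 1, 31 clusters. Of these 29 were named from 154 markers of 17 classes. Sub-clusters were made likewise at resolution 1 (fibroblast-like) and 0.3 (smooth muscle-like). Naming limits, sub-cluster resolutions, the dividing and mixed sub-clusters, the motifs and the classes described besides fibroblast-like cells were chosen after seeing the data. The members and lists were chosen with earlier results of these data known. All 9 members were counted in every class, but not every value is described here. For each, the 3 most alike genes over sub-clusters are named, and of each other list up to 4 genes of at least 50 CPM with the largest ratio to Sham, besides the genes counted as apart. A gene that this rule named is not reported here.

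UMIs were summed per class and library (NumPy 2.4.6, SciPy 1.17.1, pandas 2.3.3). The ratio rule was also run on simulated Poisson counts drawn from the Sham fibroblast-like profile. These hold no spread between cells or mice.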

Additional observations from a re-analysis of the deposited data

Results flagged for a closer look

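The results here are ratios whose direction differs between days or classes under the same contrast; the differences were not tested, since each group is 1 library. In fibroblast-like cells, Fmod was 0.296 times Sham at D2 (4 UMIs) and 12.4 times at D7. Aspn was 0.441 times Sham at D2 and 3.75 times at D7, and Prelp 0.441 and 1.06 times. In smooth muscle-like cells at D7, Aspn was 0.623 and Prelp 0.561 times Sham, on the other side of 1 from their fibroblast-like ratios, 3.75 and 1.06. For Prelp the directions did not hold. Its fibroblast-like ratio ran from 0.985 to 1.10 across settings. In the smooth muscle-like sub-cluster led by Actc1 its ratio was 1.35 (0.782 to 2.33). In lymphatic endothelial-like cells at D7, Prelp was 0.547 times Sham. Bgn at D7 was 4.93 times Sham in fibroblast-like cells and 0.642 times in endothelial-like cells. The endothelial-like ratio ran from 0.613 to 0.951 across settings, so it was close to level in some.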

How the results depend on the processing

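No paired analysis was possible because each group is 1 library and the labels give no replicate numbers. Of the counts of members apart in fibroblast-like cells, 56 values kept within 1.5 times the main count and 10 did not. Counts under the changed settings stand without the share of all genes called, which is given for the main setting only. Leaving out the dividing sub-cluster (added after seeing the data) gave 2 members lower at D2 against Sham in place of 5 and 3 higher at D7 against D2 in place of 7, and reversed the Podn ratio of D7 to D2 to 0.956. The mean over cells gave 0 higher and 2 lower at D2 against Sham and 3 higher at D7 against D2. At D7 against Sham, 2 members (Ogn and Omd) were lower in place of 1 with a cell minimum of 500 genes and 1000 UMIs, at resolution 2, without shallow clusters, with genes of at least 20 CPM and 10 UMIs, and without the sub-clusters led by another class; Omd lies at the level limit. Of single ratios and shares, 105 moved beyond their counting interval and 259 did not. The mean over cells moved 23 of 27 ratios, and subtracting the B-like level moved 0. Few D2 cells limit every D2 value.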
